A study of Caenorhabditis elegans with 78 samples.

Results

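The regions described here are stretches of the autosomes of Caenorhabditis elegans where a peak of histone H3 dimethylated at lysine 9 (H3K9me2) was called in lin-15B mutant larvae and mostly not in wild type. Overlapping H3K9me2 peaks of 16 libraries were merged into 16691 regions, of which 13816 lay on autosomes and 2875 on X. A library called a region when 1 of its peaks overlapped it by at least 1 bp. An autosomal region was kept when at least 3 of the 4 lin-15B peak lists and at most 1 of the 4 wild-type lists called it. That rule kept 846 regions, 6.12% of all autosomal regions, and they are called gained regions below, which names their call pattern. Since those 8 lists chose the regions, every value from them is a description with no test. A wild-type region that only grew wider in the mutant stays 1 merged region under this rule and is not counted.

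The study profiled histone marks by chromatin immunoprecipitation and sequencing (ChIP-seq) in whole, starved first-stage (L1) larvae. Wild type (the N2 strain) was set beside 3 mutants, lin-15B(n744), then lin-35(n745) and also lin-37(n758), with 2 libraries at 20 °C and 2 at 26 °C for each genotype and mark. Larvae for 26 °C came from parents raised at 20 °C and moved to 26 °C at the fourth larval stage. H3K9me2 was precipitated by hand, and histone H3 trimethylated at lysine 4 (H3K4me3), the other mark used here, on an automated instrument. All groups were starved as hatchlings, the wild-type controls included. The labels do not say that replicates were separate cultures, so the spread between lists may be technical. Whole larvae were used, so a mark in fewer cells and less of the mark per cell cannot be told apart.

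H3K9me2 is a mark of repressed chromatin. In worms it is made largely by the methyltransferase MET-2 and is densest on the arms of the autosomes, where repeats and silent genes are common. LIN-15B is a THAP-domain protein of the synMuv B class, a group of nuclear repressors that keep germline genes silent in somatic cells of larvae. LIN-35, the worm retinoblastoma-like protein, and LIN-37 are both subunits of DREAM, a repressor complex that binds promoters. H3K4me3 marks active promoters.

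Of the 846 gained regions, 128 showed the full contrast, with 4 of 4 lin-15B lists and 0 of 4 wild-type lists. A further 134 were called in 4 lin-15B lists and 1 wild-type list, 377 in 3 lin-15B lists and no wild-type list, and 207 in 3 lin-15B lists and 1 wild-type list. The reverse rule, at least 3 wild-type lists and at most 1 lin-15B list, kept 830 autosomal regions, 6.01% of the total. On X the same rule for gain kept 467 of 2875 regions, or 16.2%. Applied to the other mutants, which are compared with the same wild-type lists, it kept 211 autosomal regions in lin-35 (1.53%) and 228 in lin-37 (1.65%). Numbers called on the autosomes were thus close in both directions in lin-15B.

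The lists differed in length and in settings, which bears on every count. They held between 7420 peaks (lin-35, 26 °C, replicate 2) and 13766 peaks (lin-15B, 20 °C, replicate 2). The longest list also called 57.2% of the 6106 other autosomal regions that had at most 1 wild-type call, where the remaining 3 lin-15B lists called 8.94% to 13.2%. The 20 °C replicate 1 list of lin-15B was made with a q cutoff of 0.05, against 0.01 in the remaining 15 lists. Of the 584 gained regions called in 3 lin-15B lists, that list lacked 358, and the 20 °C replicate 2, 26 °C replicate 1 and 26 °C replicate 2 lists lacked 18, 121 and 87. The deposited lists give no read counts, so the depth behind a call is unknown, and a missing peak does not show that the mark was absent.

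In lin-15B, the 20 °C lists called 488 (57.7%) and 828 (97.9%) of the gained regions, and the 26 °C lists 725 (85.7%) and 759 (89.7%). In wild type, the 20 °C lists called 74 (8.75%) and 60 (7.09%), and the 26 °C lists 103 (12.2%) and 104 (12.3%). The separation of these 2 genotypes is fixed by the rule and supports nothing by itself. Leaving out the lin-15B 20 °C replicate 1 list and asking for 2 of the remaining 3 gave 1608 gained regions. The same step without the longest list, lin-15B 20 °C replicate 2, gave 969.

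**Figure D1:**
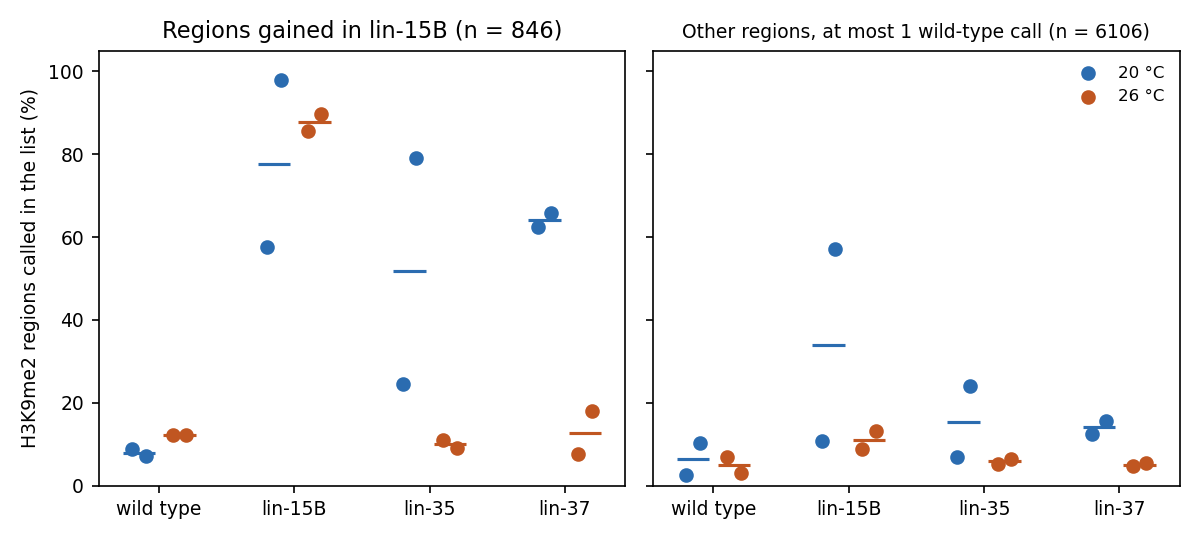
Percent of gained regions (left, n = 846) and of other autosomal regions with at most 1 wild-type call (right, n = 6106) that each of the 16 H3K9me2 lists called, by genotype. Points are lists, blue for 20 °C and orange for 26 °C, and bars are means of 2 lists; in lin-35 and lin-37 the 4 lists at 20 °C lie between 24.6% and 79.2% of gained regions and the 4 at 26 °C between 7.68% and 18%.

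The gained regions lay mostly on chromosome arms, here taken as the first and last 30% of an autosome's length. Arms held 784 of them (92.7%) and centres 62. By comparison, arms held 80.0% of all autosomal regions, 84.9% of the 5844 regions called in at least 3 wild-type lists (wild-type regions below), and 73.7% of the other regions with at most 1 wild-type call. Of the 830 autosomal regions of the reverse rule, 67.7% lay on arms. These other regions were mostly called in few lists, so they are a comparison of position and not a matched control.

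The arm share went with the number of lin-15B lists. Among autosomal regions with no wild-type call, arms held 72.7% of those called in 1 lin-15B list, 87.0% in 2, 92.6% in 3 and 99.2% in 4. The calls of 1 list differed by zone. The lin-15B 20 °C replicate 1 list called 476 of the 784 gained regions on arms (60.7%) but 12 of the 62 in centres (19.4%), where the remaining 3 lin-15B lists called 60 to 62. Of all the autosomal regions that list called, 93.2% lay on arms, against 82.9% to 88.1% in the remaining 3. Without it, the arm share of the gained regions was 87.9%, and without lin-15B 20 °C replicate 2 it was 91.2%.

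Chromosome V carried the most gained regions, 318, followed by II with 151, IV with 142, I with 135 and III with 100. V also held the most autosomal regions of any kind, 3318. Of the regions with at most 1 wild-type call, 17.6% were gained on V, against 12.2% over all autosomes. The share was below that on the other autosomes, at 11.4% on IV, 10.9% on II, 9.98% on I and 8.6% on III. The right arm of V alone held 208, or 24.6% of the gained regions, and 10.7% of all autosomal regions. Put another way, 26.9% of the right-arm regions of V with at most 1 wild-type call were gained, against 12.2% over all autosomes. The left arm of II came next at 16.2%, with 95 gained regions. The lowest shares were in the centres of III (1.54%) and II (1.72%), with 5 gained regions each. The chromosome centres together had 3.72%. Without lin-15B 20 °C replicate 1 the right arm of V held 18.2% of the gained regions.

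**Figure D2:**
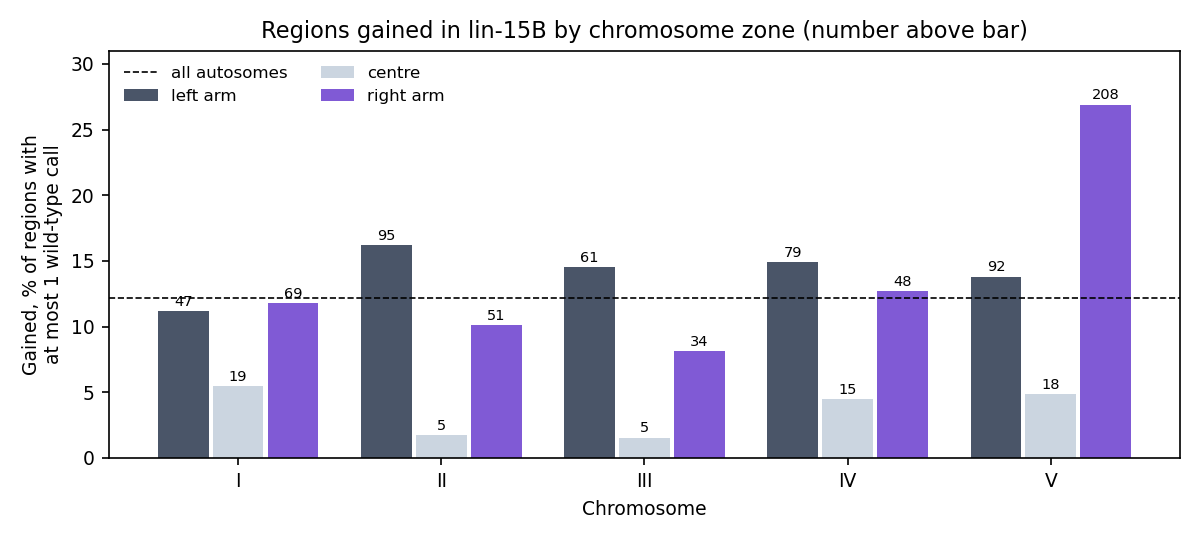
Gained regions as a percent of the autosomal regions with at most 1 wild-type call, for the left arm, centre and right arm of each autosome, with the number of gained regions above each bar. The dashed line is the 12.2% over all autosomes; the right arm of V stands at 26.9% and every centre lies below the line.

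Along the autosomes the gained regions were unevenly spread. The 85 windows of 1 Mb that held any autosomal region contained a median of 6 gained regions, and 8 windows contained none. The window from 17 to 18 Mb of V held 66 of its 323 regions as gained, and the neighbouring window from 16 to 17 Mb held 49 of 240. The next were the first Mb of V with 36, 3 to 4 Mb of II with 34 and 20 to 21 Mb of V with 31. The 11 windows with at least 20 gained regions held 349 of them (41.3%), against 20.0% of all autosomal regions. These windows were picked by their number of gained regions, which raises the first share by construction.

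The 208 gained regions on the right arm of V were wider than those elsewhere, with a median of 1075 bp against 806 bp. Other regions there were also wider (363 against 323 bp), as were wild-type regions (1914 against 1390.5 bp). Of the 208 gained regions there, 76 (36.5%) were called in all 4 lin-15B lists, against 29.2% of the 638 elsewhere. An H3K4me3 peak in any of the 16 H3K4me3 lists overlapped 11 of the 208 (5.29%), against 96 elsewhere (15%). The other regions on the right arm of V differed from those elsewhere in the same direction, with an overlap of 7.95% against 18.1%. The median distance to a wild-type region was 4462 bp for gained regions there and 3327 bp elsewhere, while for other regions it was 2954.5 and 4206.5 bp.

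Most gained regions lay close to chromatin that already carried H3K9me2 in wild type, as did most other regions with at most 1 wild-type call. The median distance to the nearest wild-type region was 3540 bp, with quartiles of 1139 and 8478 bp and a range of 12 to 130768 bp. In all, 186 (22%) lay within 1 kb, 502 (59.3%) within 5 kb, 661 (78.1%) within 10 kb and 835 (98.7%) within 50 kb. Of the other regions, 18.9%, 54.7%, 71.4% and 96.7% lay within the same distances. Wild-type regions flanked 355 gained regions (42%) within 10 kb on both sides, against 36.3% of the other regions. The distances differed more by zone than by gain. On arms the median was 3225 bp for gained and 2816.5 bp for other regions, and in centres it was 15487 and 12738.5 bp. Within 5 kb lay 62.4% of the gained and 65.4% of the other regions on arms.

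**Figure D3:**
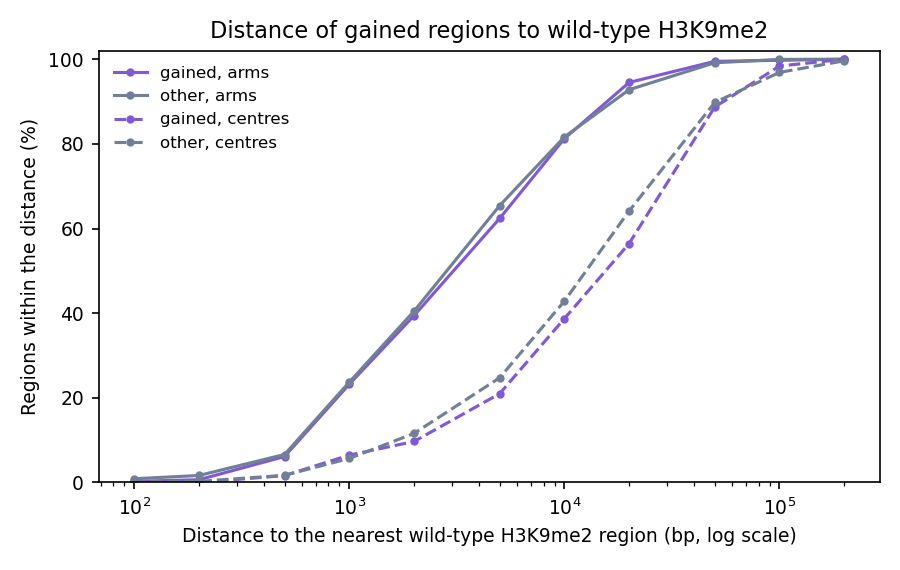
Cumulative percent of regions within a given distance (bp, log scale) of the nearest wild-type H3K9me2 region. Solid lines are arms and dashed lines centres, purple for gained and grey for other autosomal regions with at most 1 wild-type call; the curves of gained and other regions run side by side within each zone, and the arm curves reach 81.2% and 81.6% at 10 kb.

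Some gaps between neighbouring wild-type regions held several gained regions, though most of the gaps with any held 1. Of 5839 such gaps, 587 (10.1%) held at least 1 gained region: 437 held 1, 100 held 2 and 50 held 3 or more. Those 50 gaps contained 207 gained regions. Gaps with a gained region were longer, with a median of 14250 bp against 3184 bp for gaps without one, and a longer gap has more room for a region. The 3 longest runs off chromosome I were all on the right arm of V. In a gap with 16 merged regions, the first run, chrV:20610495-20666409 in genome build ce10, held 10 gained regions over 55915 bp. Of these 10, the lin-15B lists called 6 and 10 at 20 °C and 9 and 9 at 26 °C, and the wild-type lists 1, 1, 0 and 0. The lin-37 lists called 4 and 6 of them at 20 °C, and 1 each at 26 °C. The lin-35 lists called 0 and 7 at 20 °C and none at 26 °C. The second run, chrV:16975200-17003356, held 8 gained regions and the third, chrV:17060471-17089364, held 7, each in a gap with 10 merged regions. In both, the lin-35 20 °C replicate 2 list called every gained region, 8 of 8 and 7 of 7, and the 26 °C lists of lin-35 and lin-37 called 0 to 2.

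The gained regions were narrower than wild-type regions but wider than autosomal regions as a whole. Their median merged width was 880.5 bp, with quartiles of 540 and 1363.5 bp, and 6 reached 5 kb. Together they spanned 957 kb, against 14361 kb for the wild-type regions, whose median width was 1435 bp. The median was 658 bp over all autosomal regions, 623.5 bp for regions of the reverse rule and 327 bp for the other regions with at most 1 wild-type call. Regions called in all 4 lin-15B lists were wider (1181 bp, n = 262) than those called in 3 (751.5 bp, n = 584), and a wider merged region offers more room for a call. Peaks of the lin-15B lists covered 227 and 723 kb of the gained regions at 20 °C and 428 and 369 kb at 26 °C. Peaks of the wild-type lists covered 28.0, 28.7, 36.2 and 29.0 kb.

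Peaks at the gained regions ranked below those at wild-type regions in the lin-15B lists. The score is the authors' value for each peak, used here only to rank peaks inside 1 list, with a rank percentile of 100 for the highest-scoring peak. The median rank percentile of the best peak at the gained regions was 29.5 and 44 in the 20 °C lists of lin-15B and 22.8 and 25.7 in the 26 °C lists. Averaged over the lin-15B lists that called a region, the median was 30.7, with quartiles of 22.2 and 40.7, against 63.6 for wild-type regions in the same lists. Only 94 of the 846 gained regions had a mean above the 50th percentile, and 1 had a mean above the 80th. The other regions ranked lower still, with a median of 23.6 in lin-15B 20 °C replicate 2 and of 16 in each of the remaining 3 lin-15B lists. The level depends on how regions are drawn: with bins of 1 kb in place of merged regions, the mean of the 4 list medians was 57.7, against 30.5 as reported. The median was 29.2 in regions called in 3 lin-15B lists and 34.5 in those called in 4. It was close to level with distance, at 32.0 within 1 kb of a wild-type region and 30.8 beyond 10 kb.

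**Figure D4:**
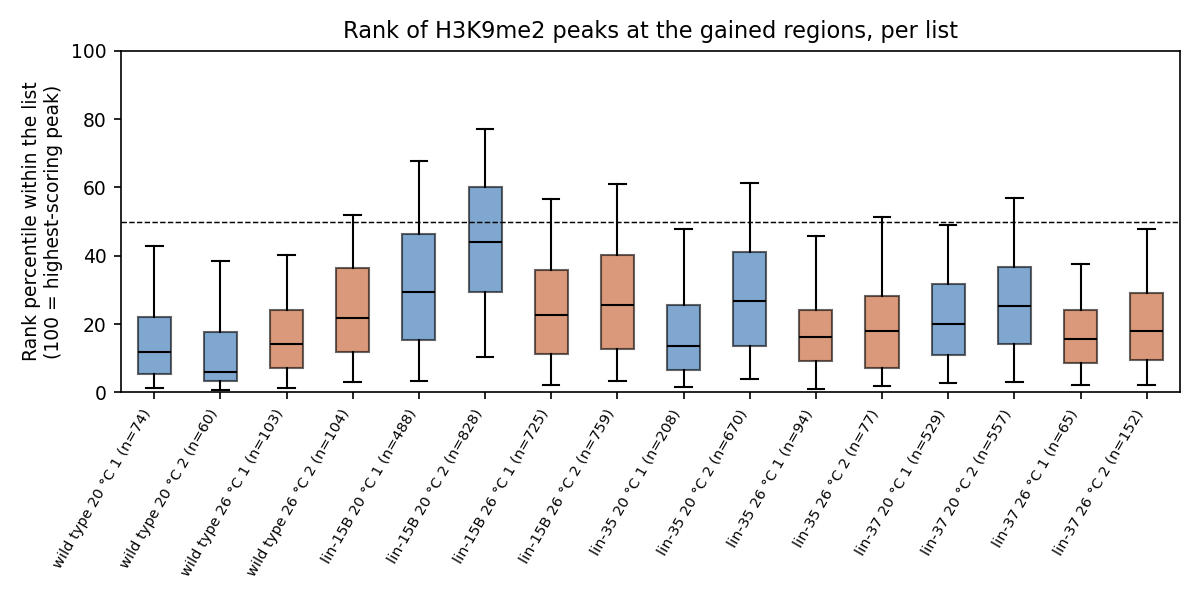
Rank percentile of the best H3K9me2 peak at each gained region a list called, for the 16 lists (100 is the highest-scoring peak of the list; n is the number of gained regions called). Boxes show quartiles and medians, whiskers the 5th and 95th percentiles, blue 20 °C and orange 26 °C; medians run from 22.8 to 44 in lin-15B, and every median lies below the dashed line at 50.

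In the mutants of the DREAM subunits the gained regions were called far more often at 20 °C than at 26 °C. The lists of these mutants took no part in choosing the regions, apart from setting the limits of merged regions. In lin-37, the 20 °C lists called 529 (62.5%) and 557 (65.8%) of the 846 regions, and the 26 °C lists 65 (7.68%) and 152 (18%). In lin-35, the 20 °C lists called 208 (24.6%) and 670 (79.2%), and the 26 °C lists 94 (11.1%) and 77 (9.10%). The 4 lists at 20 °C did not overlap the 4 at 26 °C. The wild-type values of 7.09% to 12.3% are held low by the rule and are no baseline for these lists. In lin-15B, as the rule requires, the regions were called at both temperatures.

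The same contrast of temperature was present, at a lower level, in regions outside the set. The 20 °C lists of lin-35 and lin-37 called 6.94% to 24.0% of the 6106 other regions, and the 26 °C lists 4.72% to 6.40%. The lists at 20 °C were also longer, with 9167 to 10730 peaks against 7420 to 8383 at 26 °C. When every list was cut to its 7420 highest-scoring peaks, 366 regions met the rule. Of these, the 20 °C lists called 29.5% and 69.4% in lin-35 and 60.1% and 60.9% in lin-37. The 26 °C lists called 29.5% and 20.8% in lin-35 and 22.4% and 33.3% in lin-37. At equal list length the temperatures thus overlapped, through lin-35 replicate 1 at 20 °C, and wild type stood at 5.19% to 21.3%.

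Some lists share a library code in the names of the deposited files, and the contrast can be read within a code. In the code shared by both replicate 1 lists of lin-35, 24.6% of the gained regions were called at 20 °C and 11.1% at 26 °C. The code shared by lin-37 20 °C replicate 1 and 26 °C replicate 2 gave 62.5% and 18%. Another code held lin-35 and lin-37 20 °C replicate 2 at 79.2% and 65.8%, and lin-37 26 °C replicate 1 at 7.68%. The other regions, in the same order, were called in 6.94% and 5.29%, in 12.5% and 5.39%, and in 24.0%, 15.7% and 4.72%. At equal list length the replicate 1 lists of lin-35 each called 29.5%, so the contrast within their code was not present there. What a code stands for is not given in the labels.

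Region by region, 695 of the gained regions (82.2%) were called in at least 1 lin-35 list, against 33.2% of the other regions. For lin-37 it was 684 (80.9%), against 27.7%. The lin-35 share rests on 1 list: without lin-35 20 °C replicate 2 it was 31.3%. At least 1 of the 4 lists at 20 °C of these mutants called 750 regions (88.7%), against 37.0% of the other regions. At least 1 of the 4 at 26 °C called 245 (29.0%), against 15.3%. In lin-37, 301 regions (35.6%) were called in both 20 °C lists and neither 26 °C list, against 4.44% of the other regions. The reverse was found in 4 regions (0.473%), against 0.622%. In lin-35, 123 regions (14.5%) were called in both 20 °C lists and neither 26 °C list, against 2.06%, and 2 (0.236%) showed the reverse, against 0.475%.

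Few gained regions met the full rule in another mutant. At least 3 lin-35 lists called 80 of them (9.46%), which are 37.9% of the 211 regions gained in lin-35. At least 3 lin-37 lists called 124 (14.7%), which are 54.4% of the 228 gained in lin-37. Over all autosomal regions with at most 1 wild-type call the same rule kept 3.04% in lin-35 and 3.28% in lin-37. The comparisons share the wild-type lists, so these counts are given side by side only. At least 3 lists of both mutants called 43 regions (5.08%), against 0.524% of the other regions, and all 8 lists called 13 (1.54%), against 0.115%. These shares were lower among the gained regions with no wild-type call. Of those, at least 3 lin-35 lists called 19 (3.76%) and at least 3 lin-37 lists called 28 (5.54%). At least 3 lists of both mutants called 8 of them (1.58%), and all 8 lists called 5 (0.990%). The other regions were not split in this way. At the other end, 80 gained regions (9.46%) were called in no list of lin-35 or lin-37, against 54.9% of the other regions. Those 80 were narrower (median 594 bp) and ranked lower in lin-15B (median percentile 20.9) than the 43 called in at least 3 lists of both mutants (1356 bp and 41.8).

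H3K4me3 was rare at the gained regions, and over all 846 of them the genotypes overlapped. No H3K4me3 peak of any of the 16 lists overlapped 739 of them (87.4%), and 107 (12.6%) had an overlap in at least 1 list. The share with no overlap was 82.9% in the other regions with at most 1 wild-type call and 73.1% in all autosomal regions. In wild type the lists overlapped 3.19% and 5.20% of the gained regions at 20 °C and 6.97% and 3.07% at 26 °C. In lin-15B they overlapped 3.78% and 8.04% at 20 °C and 3.55% and 7.09% at 26 °C. The means were 4.61% ± 1.85 in wild type and 5.61% ± 2.29 in lin-15B, with 5.32% ± 2.68 for lin-35 and 4.28% ± 0.244 for lin-37 (SD, n = 4 lists each). Each mutant mean lay within 1 SD of wild type. In the 128 regions with the full contrast the means were lower, 1.17% in wild type and 2.73% in lin-15B. There the lin-15B mean lay above the wild-type mean plus 1 SD, 1.95%. The ranges of 1 SD around the means still overlapped, at 0.391% to 1.95% in wild type and 1.38% to 4.09% in lin-15B. With 128 regions, such shares stand for few regions per list. The lists held 5421 to 8412 H3K4me3 peaks, and in wild type, lin-15B and lin-35 the highest share was in the list with the most peaks.

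**Figure D5:**
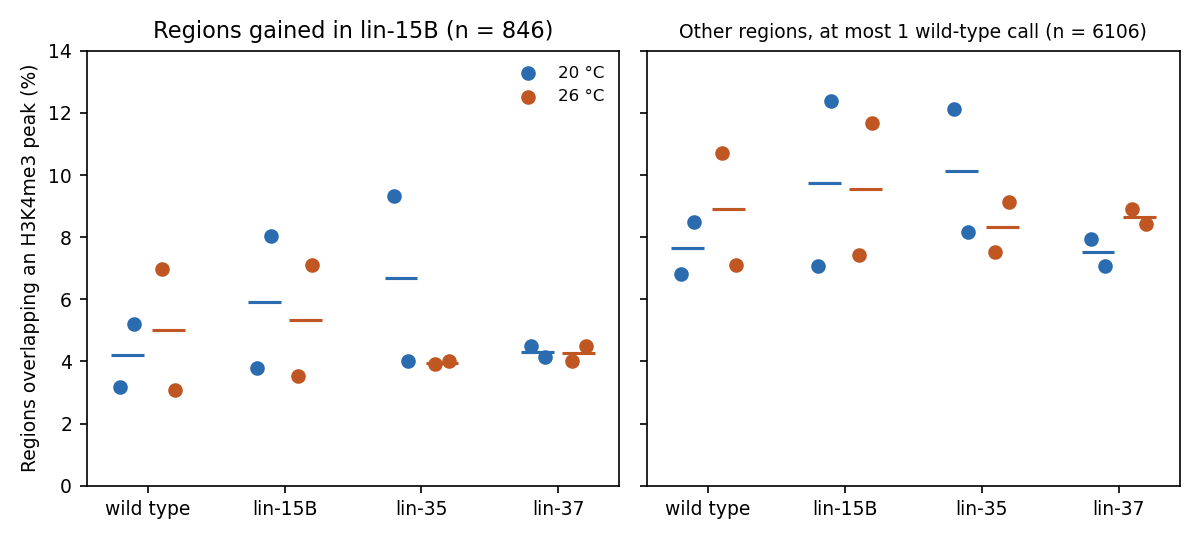
Percent of gained regions (left, n = 846) and of other autosomal regions with at most 1 wild-type call (right, n = 6106) overlapped by an H3K4me3 peak in each of the 16 H3K4me3 lists. Points are lists, blue for 20 °C and orange for 26 °C, and bars are means of 2 lists; gained regions range from 3.07% to 9.34% and the other regions from 6.81% to 12.4%, with the gained share lower in each of the 16 lists.

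Over all zones, the gained regions had a lower H3K4me3 overlap than the other regions in each of the 16 lists. On arms alone, 10.5% of gained and 13.4% of other regions had an overlap in at least 1 list. In centres the direction was the reverse, with 25 of 62 gained regions (40.3%) and 441 of 1606 other regions (27.5%). By the same call rule 6 gained regions also gained H3K4me3, 0.709%, against 2.90% of all autosomal regions and 1.11% of the other regions with at most 1 wild-type call. None lost it, against 0.174% of all autosomal regions. Only 1 gained region had H3K4me3 in 4 of 4 lin-15B and 0 of 4 wild-type lists. This region, chrV:18963623-18965840 on the right arm, was picked out after its values were seen. It had a mean H3K4me3 fold enrichment in lin-15B of 4.83 ± 0.644 (SD, n = 4), no H3K4me3 peak in lin-35 or lin-37, and H3K9me2 calls in 4 lin-15B lists and 1 wild-type list.

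Single regions show how these patterns combine, all in ce10 and chosen by rules on rank, width, position and H3K4me3. Regions on chromosome I were counted but are not named, and the rankings of single regions leave them out. Among the 128 regions with the full contrast, the highest mean rank was at chrIV:16383288-16383539, a region of 252 bp on the right arm. Its rank percentile was 87.3 and 80.3 at 20 °C and 79.9 and 86.2 at 26 °C in lin-15B, and it was called in none of the wild-type, lin-35 or lin-37 lists. A wild-type region lay 848 bp away. It was thus narrow, high in rank and called in a single genotype.

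The region chrIV:2824083-2826551, 2469 bp on the left arm, ranked 71.6 and 89.9 at 20 °C and 59.3 and 76.0 at 26 °C in lin-15B. It was called in both 20 °C lists of lin-37 (64.2 and 67.2) and in lin-35 20 °C replicate 2 (74.7), and in no 26 °C list of either mutant. It shows the temperature contrast of the set in 1 place. The same list pattern, lin-35 20 °C replicate 2 and both 20 °C lists of lin-37, was found at chrII:11755192-11755543, with a mean rank in lin-15B of 57.0 ± 24.7 (SD, n = 4).

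Most of the other highest-ranked regions with the full contrast were called in lin-35 or lin-37 lists at both temperatures. At chrV:2631831-2635530, 3700 bp on the left arm, all 4 lin-35 lists had a peak, ranking 68.1 and 65.2 at 20 °C and 44.8 and 52.6 at 26 °C. It was also called in 3 lin-37 lists, and in lin-15B it averaged 63.8 ± 8.76 (SD, n = 4). The regions chrIII:3928586-3931315 and chrIV:3668262-3670637 were called in all 12 mutant lists and no wild-type list. Their mean ranks in lin-15B were 52.3 ± 3.89 and 50.6 ± 31.6 (SD, n = 4), the second spanning 6.31 to 73.5. The remaining pair of the 8 with the highest rank were chrV:17801019-17803092, at 54.0 ± 10.7, and chrV:724552-727812, at 50.9 ± 17.0 (SD, n = 4). The last of these was the exception, called in lin-35 20 °C replicate 2 and both 20 °C lists of lin-37 and in no 26 °C list of either mutant. It also carried H3K4me3 in 4 of 4 lin-15B lists, with folds of 3.48, 2.83, 3.40 and 3.79, and in 1 wild-type list, with 2.61.

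The widest gained region, chrII:1937076-1950072, spanned 12997 bp on the left arm. It was called in all 12 mutant lists and in wild-type 20 °C replicate 2, where a peak covered 740 bp. Peaks covered 453 and 2807 bp at 20 °C and 6304 and 3314 bp at 26 °C in lin-15B. In lin-35 they covered 8676 and 9691 bp at 20 °C and 12994 and 11459 bp at 26 °C. In lin-37 they covered 8728 and 4030 bp at 20 °C and 8573 and 11013 bp at 26 °C. Each lin-35 list covered more of it than any lin-15B list, and the lin-35 26 °C replicate 1 list covered nearly all of it. The next widest off chromosome I were chrV:17060471-17067416 with 6946 bp and chrIV:3998929-4004739 with 5811 bp, and at the latter lin-15B 26 °C replicate 1 had no peak.

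The gained regions farthest from wild-type H3K9me2 were few. The farthest was chrV:12197549-12198333, 785 bp in the centre of V and 130768 bp from the nearest wild-type region. It was called in 3 lin-15B lists (ranks of 64.4, 19.4 and 30.0), 1 lin-35 list, 3 lin-37 lists and no wild-type list. The next pair, chrIV:5085319-5086381 and chrIV:5080403-5080705, were neighbours on the inner edge of the left arm of IV, 107309 and 102393 bp away. The lin-15B 20 °C replicate 1 list called none of these 3.

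Among the gained regions in centres, the highest rank was at chrIV:10330697-10331466, with a mean of 58.0 ± 6.69 (SD, n = 3 lists). It carried H3K4me3 in all 16 lists, with a mean fold of 4.08 ± 1.05 in wild type and 3.52 ± 0.438 in lin-15B (SD, n = 4), a difference smaller than the SD in wild type. The regions chrV:11616347-11616592 and chrIII:4188464-4189807 followed, at 57.9 ± 26.1 (SD, n = 3) and 56.5 ± 13.7 (SD, n = 4). Each of these centre regions also had 1 wild-type call, at 26 °C, with rank percentiles of 42.4, 51.5 and 44.1 in the order named. The last pair of these lay above the lowest rank in lin-15B, 32.5 and 43.7. The highest H3K4me3 folds in lin-15B were at chrII:11750836-11752136, with 14.0 ± 8.99 against 9.04 ± 5.75 in wild type, and at chrIII:4018167-4018827, with 12.8 ± 5.54 against 6.70 ± 2.3 (SD, n = 4 each). The lists of the 2 genotypes overlapped at both. At the second, the folds were higher still in lin-35, at 26.2 and 20.0 at 20 °C and 32.1 and 32.8 at 26 °C. In lin-37 both replicates 1 had folds of 31.9 (20 °C) and 33.9 (26 °C), and both replicates 2 had 2.93 and 7.01. At chrIII:13018803-13019896 the fold was 11.7 ± 1.43 in lin-15B and 7.88 ± 1.69 in wild type, and the lin-15B lists, at 10.6 to 13.7, lay above the wild-type lists, at 6.13 to 10.1. These regions were picked as the highest in lin-15B, so their direction is a description.

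How regions just outside the rule differed from those just inside depended on the side and on the measure. With no wild-type call, the 787 regions called in 2 lin-15B lists had a median width of 553 bp and a median rank percentile of 23.8, against 753 bp and 27.6 for the 377 called in 3. Arms held 87.0% and 92.6% of them, the median distances were 3527 and 4312 bp, and they were called in a mean of 0.540 and 0.873 lin-35 lists and 0.616 and 1.07 lin-37 lists. With 4 lin-15B calls, the 140 regions called in 2 wild-type lists had a median width of 1214.5 bp and a rank of 38.2, against 1217 bp and 38.7 for the 134 called in 1. Arms held 95.7% and 94.0% of them. They were called in a mean of 2.17 and 1.85 lin-35 lists and 2.74 and 2.24 lin-37 lists. With 3 lin-15B calls, the 188 regions called in 2 wild-type lists had a median width of 871 bp and an arm share of 80.3%. The 207 called in 1 had 750 bp and 87.9%.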

How the data were processed

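Peak lists of 16 H3K9me2 and 16 H3K4me3 libraries were used, 2 for each of 4 genotypes and 2 temperatures. Samples of H3K36me3, H3K27me3 and inputs are not analysed here. Reads were aligned with Bowtie 1.1.2 to ce10 and MACS2 made the peak calls, per the submitters' processing notes; a version of MACS2 is not given in the sources used here. One list was made per library with its own input, per the labels. For H3K9me2 the deposited files hold broad peaks, each with a score; which quantity the authors' score holds could not be settled, so it served only for ranks within a list. The deposited H3K4me3 lists give the authors' fold enrichment, a ratio. File names gave a q cutoff of 0.01 for 15 H3K9me2 lists and 0.05 for 1, and a shift of 125 bp. Groups and replicate numbers came from the labels' titles.

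Peaks were merged, called by overlap and counted in Python 3.11.15 with pandas 2.3.3 and numpy 2.4.6, with code tested on simulated lists. The highest peak end stood for chromosome length. No test was made: the regions were chosen on the compared lists, and regions are not replicates. The regions and lists were chosen with earlier results of these data known. Named regions were the 8 highest-ranked with 4 lin-15B and 0 wild-type calls, and 3 each by width, rank in centres, distance, H3K4me3 fold and length of run, all with chromosome I left out. Alternatives covered the call rule, list length, score threshold, overlap, 1 kb bins, temperature, arm limits, the wild-type definition, H3K4me3 overlap and leaving out each list. Depth is unknown, so no interval for it is given. No genome or annotation of ce10 was used here, so no gene or sequence is named.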

Additional observations from a re-analysis of the deposited data

Results flagged for a closer look

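Among groups of 4 lists, 4 values stood far from the rest by the gap to the nearest list, which chance gives in about 1 in 20 groups. The number of groups screened is not given here, so the 4 values cannot be set against that rate. The lin-15B 20 °C replicate 2 list called 57.2% of the other regions with at most 1 wild-type call, against 8.94% to 13.2% in the remaining lin-15B lists. Peaks found in that longest list alone fall among these regions by the rule. The lin-35 20 °C replicate 2 list called 24.0% of the other regions, against 5.29% to 6.94%. In H3K4me3, the lin-35 20 °C replicate 1 list overlapped 9.34% of the gained regions, against 3.90% to 4.02% in the remaining lin-35 lists. It overlapped 7.53% of those on arms, against 2.81% to 2.93%, and the arm regions are a part of the same set.

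The change from 20 to 26 °C ran in opposite directions in some genotypes, and the difference between genotypes was not tested. Lists of wild type and lin-15B chose the gained regions, with at most 1 wild-type call allowed for each region. Wild type is thus no baseline here, and its opposite direction is a description only. The share of gained regions called was higher at 26 °C by 4.31 percentage points in wild type, while the difference was -41.8 in lin-35 and -51.4 in lin-37. The median rank percentile of gained regions was higher at 26 °C by 9.14 in wild type, while the difference was -12.5 in lin-15B and -5.93 in lin-37.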

How the results depend on the processing

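The number of gained regions was 128 with 4 of 4 lin-15B and 0 of 4 wild-type lists, 366 with equal peak numbers and 562 with the 26 °C lists alone (2 of 2 against 0 of 2). It ran from 845 to 1608 when each list was left out, with 1608 without lin-15B 20 °C replicate 1, 1553 without 26 °C replicate 1 and 1323 without 26 °C replicate 2, where 2 of 3 lists is a looser rule by construction. The arm share was 99.2% with 4 of 4 and 0 of 4, 96.9% with 1 kb bins, 96.3% at 20 °C alone, 85.0% and 94.6% with arms as the outer 25% and 35%, and 87.9% to 93.3% leaving out lists. The right arm of V held 21% at 20 °C alone and 18.2% to 24.8% leaving out lists. The median distance was 2849 bp with 4 of 4 and 0 of 4, 4324 bp with equal peak numbers, 2000 bp with bins, 2849.5 bp at 20 °C, 4042.5 bp at 26 °C, 4832.5 and 1645.5 bp with wild-type regions called in all 4 or at least 1 list, and 2794 to 3759.5 bp leaving out lists. The median width was 1140, 987, 1010, 1023 and 1000 bp with 4 of 4 and 0 of 4, equal numbers, the lowest-scoring 20% left out, a 200 bp overlap and bins, and 702 to 891 bp leaving out lists. The median rank was 57.7 with bins and 24.8 to 32.7 leaving out lists.

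The share called in at least 1 lin-35 list was 91.4%, 79.2%, 79.1%, 84.7% and 70.0% with 4 of 4 and 0 of 4, equal numbers, the lowest 20% left out, a 200 bp overlap and 20 °C alone, and 31.3% to 84.3% leaving out lists. For lin-37 it was 87.5% with 4 of 4 and 0 of 4, 70.4% at 20 °C alone and 66.1% to 84.2% leaving out lists. The mean share called per list of both mutants was 45.2% to 69.1% at 20 °C and 7.5% to 18.3% at 26 °C leaving out lists, and at 26 °C it was 26.5% with equal numbers and 21.7% with bins. H3K4me3 overlap with 4 of 4 and 0 of 4 was 1.17% in wild type and 2.73% in lin-15B, with 1.56% for lin-35 and 0.391% for lin-37. In lin-37 it was 3.14%, 3.59%, 4.93% and 2.85% with equal numbers, a 200 bp overlap, bins and 20 °C alone. A 200 bp overlap with H3K4me3 gave 3.55% in lin-37, and a peak within 500 bp gave 6.26% in lin-37 and 6.47% in wild type. Leaving out lists, it ran from 3.82% to 5.81% in wild type and 4.81% to 6.86% in lin-15B, with 3.98% to 6.61% for lin-35 and 3.99% to 5.60% for lin-37. The cause of these shifts was not tested. By a limit set for each result, 269 of 350 values counted as unmoved. For arm shares, shares called in lin-35 and lin-37, distance and width, the limit was a 95% interval over regions. Regions are not replicates. The limit was a fold change for the number of regions, and the SD between lists for the rest. Many alternatives also left out lists that the rule does not use, so the tally does not measure robustness. The values for the right arm of V and the means per list were added after the data were seen. No paired analysis was possible because the results come from no test.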

Other observations

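Gained regions lay less often near regions of the reverse rule than other regions did. Of the 846 gained regions, 108 (12.8%) had such a region within 10 kb, against 17.9% of the 6106 other regions with at most 1 wild-type call. On arms the shares were 12.5% and 18.6%. The sets were not matched by chromosome. The right arm of V held 24.6% of the gained, 9.27% of the other and 5.18% of the reverse-rule regions. Whether this placement bears on the difference was not tested. Of the 467 regions gained on X, the 26 °C lists of lin-15B called 98.9% and 97.4% and the 20 °C lists 23.1% and 99.4%. Of the autosomal gained regions, the same lists called 85.7% and 89.7%, and 57.7% and 97.9%. The low value at 20 °C was replicate 1 in both.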
